A study of Mus musculus with 21 samples.

Results

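The 10 genes described here are the 2 chains of the CD8 co-receptor (Cd8a and Cd8b1) and 8 genes of cytotoxic granules and their effectors (Gzma, Gzmb, Gzmk, Prf1, Nkg7, Cst7, Ctsw and Ifng). They were chosen by name, and each was matched to 1 probe set, so they are 10 of 19505 named genes and 10 of 22206 probe sets tested. Expression was measured in 21 tumours, 1 array per mouse. Hepa1-6 cells, a murine hepatoma line, were injected under the skin into C57BL/6J females that were 5 to 6 weeks old at injection, and treatment was assigned at random at a tumour volume of 200 mm3. All 4 arms therefore share the same cell line, strain and sex, and the host kept its immune system. The placebo arm (n = 6) received drug vehicle and polyclonal IgG. The lenvatinib arm (n = 5) received 10 mg/kg of this multikinase inhibitor of VEGF and FGF receptors by mouth each day. The anti-PD1 arm (n = 5) received 5 intraperitoneal doses of 10 mg/kg of the antibody J43, which blocks an inhibitory receptor of T cells, at intervals of 3 days, and the combination arm (n = 5) received lenvatinib and J43 together. Collection was on day 13, with the final lenvatinib gavage 2 h earlier and the final antibody injection 1 day earlier. RNA came from 30 mg of tissue. A hepatoma under the skin is not in the liver, and each array reads every cell type of the piece taken.

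CD8 is a co-receptor that binds class I major histocompatibility molecules beside the T cell receptor, and it marks the T cells that kill. The killing is done by granules: perforin (Prf1) opens the target cell's membrane and granzymes (Gzma, Gzmb, Gzmk) enter and cleave proteins inside. Nkg7 is a granule membrane protein needed for release, Cst7 (cystatin F) inhibits the proteases that activate granzymes, and Ctsw (cathepsin W) is a protease of cytotoxic lymphocytes. Ifng encodes interferon-gamma, the cytokine these cells secrete, which raises antigen presentation in the cells around them. Natural killer cells make most of the granule genes too and lack the CD8 alpha-beta pair.

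In genome order Cd8a and Cd8b1 are direct neighbours, as are Gzma and Gzmk, with 0 protein-coding genes between them in each case. Promoters were found for 8 of the 10 genes in the RefSeq table of build GRCm38.p6, and Cd8b1 and Ctsw were not matched. The promoters of Gzmb, Prf1, Nkg7 and Gzmk are printed here because granule genes varied together across tumours and because they hold matches to 2 short cores of lymphocyte transcription factors. The 250 bases before the start site are given 5′ to 3′ on the gene's own strand, with capitals marking the Runx core TGTGGT or its reverse complement and the T-box core GGTGTGA or its reverse complement.
Gzmb, at chr14:56262335-56262584 on the minus strand: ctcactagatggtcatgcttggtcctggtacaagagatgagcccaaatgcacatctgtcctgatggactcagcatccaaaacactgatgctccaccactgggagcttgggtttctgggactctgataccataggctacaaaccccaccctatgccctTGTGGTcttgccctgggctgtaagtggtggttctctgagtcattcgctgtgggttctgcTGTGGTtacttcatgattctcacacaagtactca
Prf1, at chr10:61297586-61297835 on the plus strand: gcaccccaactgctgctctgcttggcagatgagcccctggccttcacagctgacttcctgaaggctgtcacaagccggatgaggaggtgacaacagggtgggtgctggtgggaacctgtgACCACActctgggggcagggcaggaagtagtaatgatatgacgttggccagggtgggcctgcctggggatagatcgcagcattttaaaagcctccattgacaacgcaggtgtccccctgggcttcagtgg
Nkg7, at chr7:43436888-43437137 on the plus strand: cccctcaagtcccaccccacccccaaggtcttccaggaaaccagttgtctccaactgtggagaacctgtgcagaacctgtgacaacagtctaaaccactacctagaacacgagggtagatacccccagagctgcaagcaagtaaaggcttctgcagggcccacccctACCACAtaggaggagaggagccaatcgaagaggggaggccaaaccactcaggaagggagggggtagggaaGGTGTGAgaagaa
Gzmk, at chr13:113180966-113181215 on the minus strand: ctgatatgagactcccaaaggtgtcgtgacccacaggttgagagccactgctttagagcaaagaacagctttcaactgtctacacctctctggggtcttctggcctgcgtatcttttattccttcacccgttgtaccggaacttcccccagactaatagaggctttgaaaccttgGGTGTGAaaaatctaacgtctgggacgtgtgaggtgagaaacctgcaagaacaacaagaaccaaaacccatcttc
The Runx core occurred in the promoters of 5 of the 8 genes (Gzma, Gzmb, Prf1, Nkg7 and Cst7) and in 14% of all 32851 promoters of that length. The T-box core occurred in 2 of the 8 (Gzmk and Nkg7) and in 3.33% of all. Matches to the 2 cores overlapped in 30 promoters of the table and in 0 of these 8. A match is a description of letters and shows no binding.

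Some properties of the arrays touch every result that follows. The mean signal of 9 hybridization-control rows was 11.20 to 11.60 on 6 arrays (placebo 4 and 6, lenvatinib 1 and 2, and mouse 1 of both the anti-PD1 and the combination arm) and 10.09 to 10.70 on the other 15. The spread of signals was narrower on those 6, with an interquartile range of 2.41 to 2.82 log2 units against 3.00 to 3.25, while array medians were alike at 5.32 to 5.49. Negative-control probe rows had a median of 4.08. Each of the 10 genes exceeded its array's negative-control median on 20 or 21 of the 21 arrays, except Ifng, which did so on 14. The 95th percentile of those rows, 7.04 to 7.78 by array, is a stricter mark: Nkg7 exceeded it on 19 arrays, Cd8b1 on 17, Cst7 on 16, Gzmb on 8, Cd8a on 4 and Gzmk on 2, and Gzma, Prf1, Ctsw and Ifng on 0 of 21. Levels are log2 signals, in which a difference of 1 is a doubling, and the level of one gene's probe set is not set against that of another.

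The CD8 chains had their highest mean levels in the combination arm and their lowest in the anti-PD1 arm. Cd8a, which encodes the alpha chain, had log2 signals of 5.78, 8.23, 7.63, 8.42 and 7.98 in combination mice 1 to 5 and of 5.28, 4.74, 6.26, 6.88 and 6.26 in anti-PD1 mice 1 to 5. It measured 4.75, 5.32, 6.40, 6.80 and 7.05 with lenvatinib, and ran from 5.57 through a median of 6.38 to 7.17 with placebo. Combination tumours 2 to 5 lay above every tumour of the other arms, and combination mouse 1 lay among those, so the arms overlapped. The arm means were 7.61 ± 1.06 with combination, 6.37 ± 0.73 with placebo, 6.06 ± 0.99 with lenvatinib and 5.88 ± 0.86 with anti-PD1 (mean ± SD). All 6 arrays with bright controls were low in Cd8a, at 4.75 to 6.07, and combination mouse 1 is one of them; the part of the arrays in this was not tested. In bulk tumour RNA a lower number of CD8 T cells cannot be told apart from less Cd8a or Cd8b1 RNA in each.

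Cd8b1, which encodes the beta chain found with the alpha chain on conventional cytotoxic T cells, spread further. Its log2 signals were 8.02, 10.04, 9.64, 10.51 and 9.91 in combination mice 1 to 5 and 6.77, 4.92, 7.78, 8.75 and 7.48 in anti-PD1 mice 1 to 5. It measured 7.05, 7.96, 7.91, 8.34 and 9.10 with lenvatinib and lay between 8.40 and 9.30 with placebo (median 8.69). Again 4 combination tumours exceeded all 16 tumours of the other arms, and only anti-PD1 mouse 4 reached the placebo range from below. The means were 9.62 ± 0.95, 8.72 ± 0.33, 8.07 ± 0.74 and 7.14 ± 1.43 in the combination, placebo, lenvatinib and anti-PD1 arms.

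Of the 3 granzymes, Gzmk correlated best with Cd8b1 over the tumours (r = 0.86) and Gzma least (0.55). Gzmk, a granzyme typical of memory-like CD8 T cells, had log2 signals of 5.73, 7.85, 6.47, 5.87 and 7.39 with combination and 5.02, 3.39, 5.10, 6.17 and 5.28 with anti-PD1. The lenvatinib values were 4.72, 5.61, 5.37, 6.33 and 6.93, and the placebo values lay close together from 6.00 to 6.83 with a median of 6.13. Combination and anti-PD1 overlapped only through anti-PD1 mouse 4, the one tumour of its arm above the lowest combination tumour.

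Gzmb, the caspase-activating granzyme, had log2 signals of 7.71, 8.80, 7.87, 6.73 and 7.90 in combination mice 1 to 5. The anti-PD1 tumours measured 6.40, 3.94, 7.12, 7.31 and 6.03, the lenvatinib tumours 6.82, 6.06, 7.0, 7.24 and 8.87, and the placebo tumours ran from 5.93 to 7.76 (median 7.15). The single highest value belonged to lenvatinib mouse 5 and the single lowest to anti-PD1 mouse 2, and all arms overlapped. Gzma, a tryptase-like granzyme, ranged from 5.13 to 7.15 with combination, 4.77 to 7.49 with placebo, 5.21 to 7.62 with lenvatinib and 4.51 to 6.28 with anti-PD1. Its 4 arm means, 6.16, 5.97, 5.80 and 5.47 in that order, lay within 1 SD of each other.

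Ctsw was the 1 gene of the 10 without overlap between combination and anti-PD1 tumours, at signals that exceeded the 95th percentile of the negative controls on no array. Its log2 signals were 6.02, 6.90, 6.38, 7.26 and 7.03 in combination mice 1 to 5 and 5.82, 4.11, 5.99, 5.95 and 5.22 in anti-PD1 mice 1 to 5, so that every combination tumour lay above every anti-PD1 tumour, the nearest pair by less than 0.05. Lenvatinib tumours measured 5.68, 5.63, 5.61, 5.26 and 6.67. Placebo tumours ran from 6.00 to 6.94 (median 6.09), and all 5 anti-PD1 tumours lay below them, again by less than 0.05 at the nearest. The exact two-sided permutation test gave p = 0.00794 for combination against anti-PD1 and p = 0.00216 for anti-PD1 against placebo, which are the smallest values that 5 against 5 and 5 against 6 mice allow, among 60 such tests run over the 10 genes.

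Nkg7 and Cst7 gave the same order of arms. Nkg7 had log2 signals of 8.54, 9.90, 9.30, 9.35 and 9.90 with combination, 8.55, 5.37, 8.07, 8.64 and 7.49 with anti-PD1 and 8.13, 8.47, 8.26, 8.25 and 9.35 with lenvatinib. Placebo tumours lay between 8.27 and 9.35 (median 9.02). The anti-PD1 arm held a value far below all others, in mouse 2, while mice 1 and 4 lay within the placebo range and mice 3 and 5 below it.

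Cst7 measured 7.76, 8.94, 8.68, 8.91 and 9.65 with combination and 6.70, 6.76, 6.69, 8.55 and 6.43 with anti-PD1. With lenvatinib it measured 8.52, 8.33, 7.41, 7.78 and 9.48, and with placebo it ran from 7.91 to 9.37 (median 8.31). All anti-PD1 tumours but mouse 4 lay below every tumour of the 3 other arms, and mouse 4 lay within the combination range.

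Prf1 and Ifng had the smallest differences between the combination and anti-PD1 arms. Prf1 log2 signals were 5.55, 6.79, 6.44, 6.26 and 5.70 with combination, 5.80, 4.61, 6.10, 5.80 and 5.12 with anti-PD1 and 4.76, 5.39, 6.17, 6.19 and 7.03 with lenvatinib, and ran from 4.97 to 6.48 with placebo. Ifng ranged from 4.31 to 5.19 with combination, 3.39 to 5.38 with placebo, 3.48 to 5.42 with lenvatinib and 3.35 to 4.88 with anti-PD1. The highest signal of both genes came from lenvatinib mouse 5, and every pair of arms overlapped. Neither gene exceeded the 95th percentile of the negative controls on any array, which limits what these small differences can show.

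**Figure D1:**
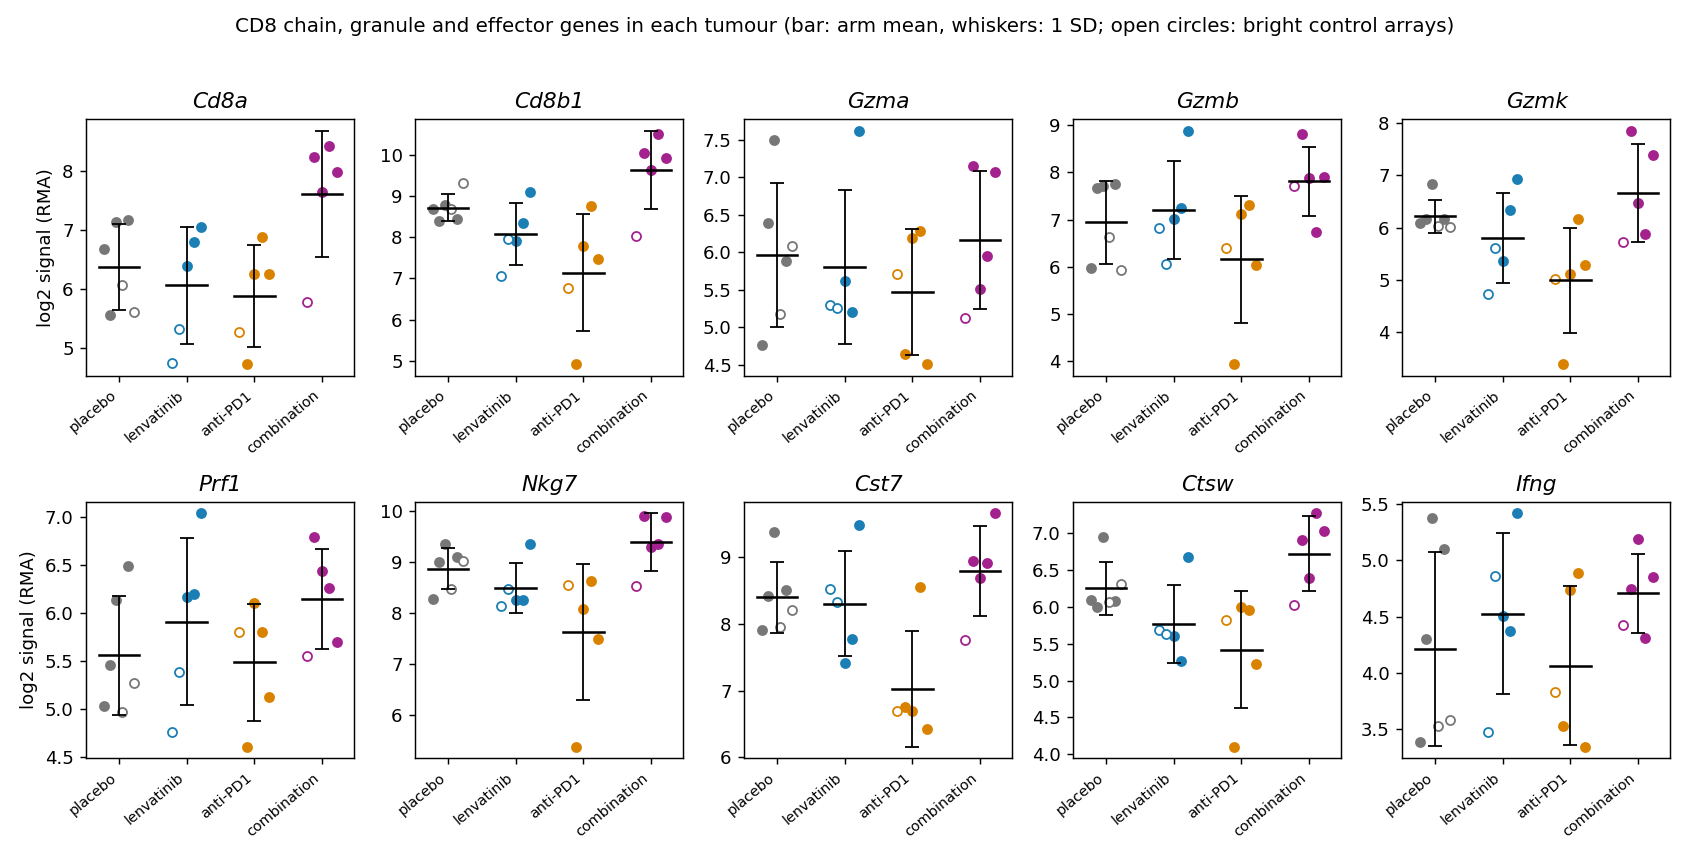
Log2 signal (y axis) of the 10 genes in each of the 21 tumours by arm (x axis); points are tumours, open circles the 6 arrays with bright controls, bars the arm mean and whiskers 1 SD. For Cd8a 4 of 5 combination tumours sit at 7.63 to 8.42, above all others, and for Ctsw every combination tumour sits above every anti-PD1 tumour.

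The differences between arms were tested with limma over all 22206 probe sets, with Benjamini-Hochberg adjustment within a comparison, and a gene passed at an adjusted p under 0.05. None of the 10 genes passed in any of the 7 comparisons, and neither did any other probe set, so the share called was 0% in each. The counts that follow are therefore those at an unadjusted p under 0.05, read beside the share of all probe sets that met it in the same direction. Over all probe sets the median difference was between -0.01 and 0.01 in each comparison. All comparisons with an arm in common share that arm's tumours, so their values are not independent.

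Of the 6 pairs of arms, the largest differences were between the combination and anti-PD1 alone, the comparison that asks what lenvatinib adds to the antibody. All 10 genes were above 0, as were 48.1% of all probe sets, with a median difference of 1.66, and 7 had an unadjusted p under 0.05, where 4.85% of all probe sets did. Cd8b1 differed by 2.48 ± 0.54 (log2 difference ± SE), which is 5.59-fold, with adjusted p = 0.124 by limma. Cst7 differed by 1.77 ± 0.42 (adjusted p = 0.136), Nkg7 by 1.77 ± 0.46 (0.155), Ctsw by 1.30 ± 0.34 (0.155), Gzmk by 1.67 ± 0.47 (0.19), Cd8a by 1.72 ± 0.53 (0.24) and Gzmb by 1.64 ± 0.59 (0.359). These 7 intervals lay above 0 and none passed the adjustment. Gzma at 0.69 ± 0.55, Prf1 at 0.66 ± 0.39 and Ifng at 0.64 ± 0.41 had 95% intervals that spanned 0. Tumours without overlap between these arms were found for 1 of the 10 genes (Ctsw, higher), against 0.527% of all probe sets.

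Leaving out single tumours or arrays changed these differences and which of these genes passed. Without anti-PD1 mouse 2 the differences were 1.93 for Cd8b1, 1.44 for Cd8a, 1.27 for Gzmk and 1.21 for Nkg7. Gzmb was then at 1.09, Ctsw at 0.97 and Prf1 at 0.44. Each was the gene's lowest value over single mice left out. For Gzma, Cst7 and Ifng the lowest value came with another mouse left out. With combination mouse 1 left out, 5 of the 10 passed by limma, among 338 probe sets that passed. These were Cd8a, Cd8b1, Nkg7, Cst7 and Ctsw (adjusted p 0.0142 to 0.0381). Without anti-PD1 mouse 4, 2 passed (Cd8b1 and Cst7, both 0.0285), among 87 probe sets. Combination mouse 1 was the lowest of its arm for those 5 genes, and anti-PD1 mouse 4 the highest of its arm for those 2. Without the 6 arrays with bright controls, Cd8a differed by 2.03 and Cd8b1 by 2.79, both with adjusted p = 0.0421 by limma, among 233 probe sets that passed. The other 15 arrays alone gave differences from 0.65 (Ifng) to 2.79 (Cd8b1) for combination against anti-PD1, with 4 tumours each. The bright arrays hold 1 tumour of each of these arms, which differed by -0.58 for Gzma, -0.25 for Prf1 and -0.01 for Nkg7. The rest of the genes lay above 0 there, from 0.20 (Ctsw) to 1.31 (Gzmb), with Cd8a at 0.50 and Cd8b1 at 1.25. Array weights, by which limma counts noisy arrays less, let 6 pass (those 5 and Gzmk), with 504 probe sets passing in all. The 6 arrays with bright controls had weights of 0.178 to 0.643, with combination mouse 1 at 0.368. The others had 0.540 (anti-PD1 mouse 2) and 0.875 to 3.634. These alternatives therefore act partly on the same arrays and are not independent.

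Anti-PD1 alone against placebo asks what the antibody did without lenvatinib. All 10 genes lay below 0, as did 50.4% of all probe sets, with a median of -0.81, and 5 had an unadjusted p under 0.05 where 2.68% of all probe sets were lower by that measure. Those 5 were Cst7 at -1.37 ± 0.40 (adjusted p = 0.82 by limma), Cd8b1 at -1.58 ± 0.52 (adjusted p = 0.946), Nkg7 at -1.25 ± 0.44, Gzmk at -1.22 ± 0.45 and Ctsw at -0.83 ± 0.32. Cd8a, at -0.49 ± 0.51, had an interval on both sides of 0, as had Prf1 at -0.07 ± 0.38. One gene, Ctsw, had no overlap, against 0.374% of probe sets lower in this way. Anti-PD1 mouse 2 weighed on these values: without it Cd8b1 differed by -1.02, Nkg7 by -0.69, Ctsw by -0.50, Gzmb by -0.23, Cd8a by -0.20 and Prf1 by 0.15, while Cst7 ranged from -1.75 to -1.18 over all single tumours left out.

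The combination against placebo, the overall effect of both drugs, gave 10 of 10 differences above 0 (49.3% of all probe sets) with a median of 0.51. Only Cd8a had an unadjusted p under 0.05, at 1.24 ± 0.51 (2.36-fold, 95% interval 0.18 to 2.29 on the log2 scale, adjusted p = 1 by limma), where 1.01% of all probe sets were higher by that measure. Cd8b1 followed at 0.91 ± 0.52 and Gzmb at 0.86 ± 0.56, and the rest lay between 0.20 (Gzma) and 0.59 (Prf1). On the other 15 arrays Cd8a differed by 1.43 and Cd8b1 by 1.45, with 4 tumours in each arm. On the bright arrays, with 1 combination and 2 placebo tumours, Cd8a differed by -0.06 and Cd8b1 by -0.98. There Gzma, Cst7, Gzmk, Nkg7 and Ctsw also lay below 0 (-0.51 to -0.16), and Gzmb, Ifng and Prf1 above it (0.43 to 1.43). In 1 gene of the 10, Gzma, leaving out single tumours turned the sign, with values from -0.05 to 0.50.

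Against lenvatinib alone, which asks what the antibody adds, the combination had 10 of 10 differences above 0 (48.8% of all probe sets) with a median of 0.74. Of these, 3 had an unadjusted p under 0.05 where 3.87% of all probe sets did: Cd8b1 at 1.55 ± 0.54, Cd8a at 1.54 ± 0.53 and Ctsw at 0.95 ± 0.34, each with adjusted p = 0.78 by limma. These same 3 passed with array weights (adjusted p 0.0323 to 0.0454 by limma), among 707 probe sets that passed. Prf1 at 0.24 ± 0.39 and Ifng at 0.18 ± 0.41 had the smallest differences, and Nkg7 at 0.91 ± 0.46 and Gzmk at 0.87 ± 0.47 came next below Ctsw. For lenvatinib against placebo 0 of 10 had an unadjusted p under 0.05 by limma, where 2.92% of all probe sets were higher and 4.05% lower, and the differences ran from -0.65 (Cd8b1) to 0.35 (Prf1). The intervals were wide, with 95% bounds of -1.72 and 0.43 for Cd8b1. Against anti-PD1 alone, lenvatinib tumours had 10 of 10 differences above 0 (51.5% of all probe sets), from 0.18 (Cd8a) to 1.28 (Cst7), and Cst7 was the 1 gene with an unadjusted p under 0.05, where 1.55% of probe sets were higher by that measure.

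**Figure D2:**
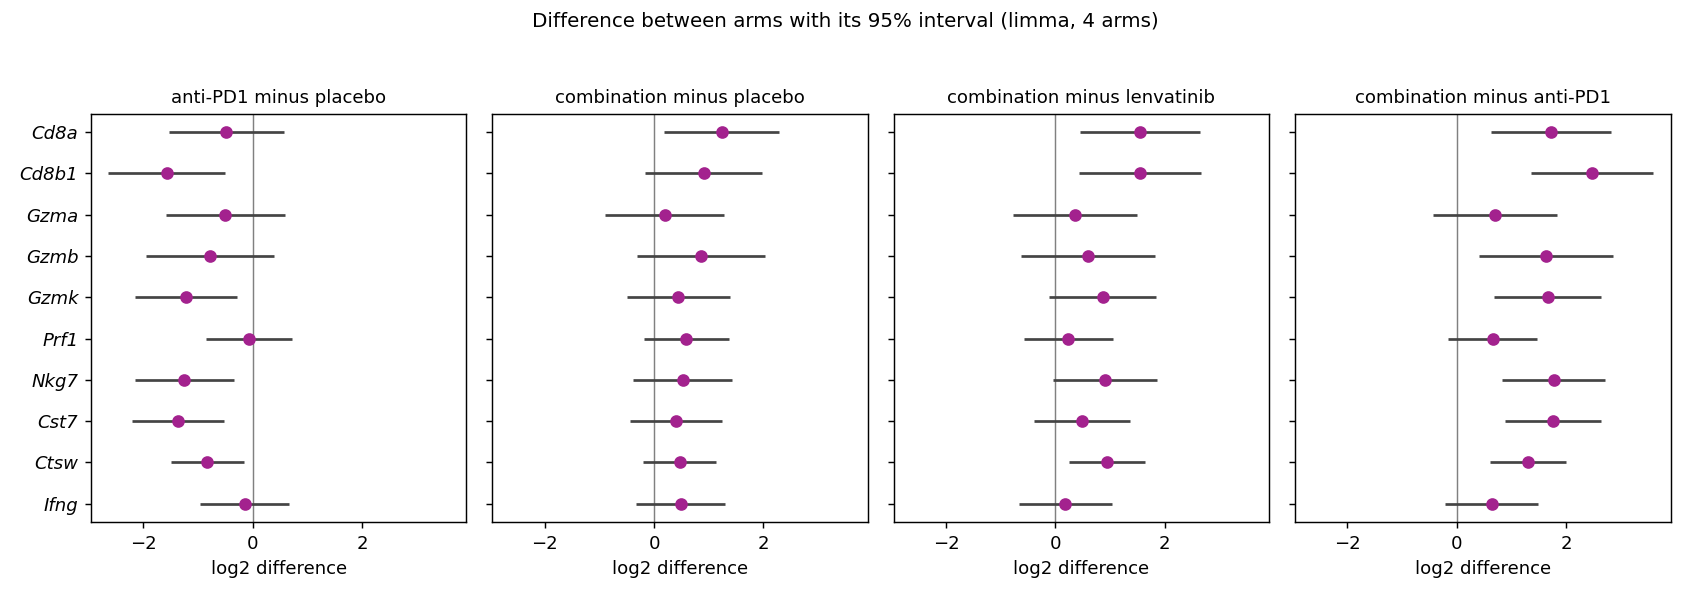
Log2 difference between arms (x axis) of each of the 10 genes (y axis) in 4 comparisons; points are limma estimates and lines their 95% intervals. For combination minus anti-PD1 the points run from 0.64 (Ifng) to 2.48 (Cd8b1), and for anti-PD1 minus placebo all 10 lie below 0.

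The interaction asks whether lenvatinib's difference in the presence of the antibody departs from its difference without it. It was above 0 for 10 of 10 genes and 48.9% of all probe sets, with a median of 1.82, and 6 had an unadjusted p under 0.05 where 5.7% of all probe sets did. Cd8b1 had the largest, at 3.13 ± 0.75 (adjusted p = 0.152 by limma), followed by Nkg7 at 2.16 ± 0.63, Gzmk at 2.09 ± 0.65, Cd8a at 2.03 ± 0.73, Cst7 at 1.86 ± 0.59 and Ctsw at 1.78 ± 0.46. Prf1 at 0.31 ± 0.54 and Ifng at 0.33 ± 0.57 had intervals on both sides of 0. Without combination mouse 1, Cd8b1 and Ctsw passed (adjusted p = 0.0211 and 0.0397 by limma), among 320 probe sets that passed. With array weights Cd8b1, Nkg7, Cst7 and Ctsw passed, among 1691 probe sets.

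Marker lists of other cell types also differed in level between tumours, and their part in the differences was not tested. The mean of 9 T cell markers (of 11 listed) was 6.77 to 9.01 in combination tumours, 6.95 to 7.88 with placebo, 6.51 to 7.82 with lenvatinib and 5.18 to 6.98 with anti-PD1. The mean of 5 natural killer cell markers (of 7) ran from 4.75 to 6.13, 5.38 to 6.47, 4.76 to 6.01 and 4.19 to 5.74 in the same order, and that of 7 macrophage markers (of 8) from 7.95 to 10.07, 8.54 to 9.74, 7.61 to 9.54 and 7.41 to 9.19. For combination against anti-PD1, 9 of 9 T cell markers lay above 0 (median 1.76), all 9 with an unadjusted p under 0.05 by limma. So did 7 of 7 macrophage markers (median 1.18, 6 at that p) and 5 of 5 B cell markers (median 1.84, 4 at that p). The share of all probe sets was 4.85%. Adipocyte (5 of 5), endothelial (4 of 5) and hepatoma markers (4 of 6) lay mostly below 0. B cell markers were high in combination mice 3 (6.28) and 4 (8.23) and at most 5.41 elsewhere; without these mice Cd8b1 differed from anti-PD1 by 2.18 and Cd8a by 1.44. Anti-PD1 mouse 2, lowest of all 21 tumours for 7 of the 10 genes, also had the highest adipocyte markers (11.51), skeletal muscle markers of 9.18 and the lowest hepatoma markers (5.45). Hepatoma markers such as Alb and Afp were otherwise at 5.65 to 9.10. For lenvatinib against placebo 6 of 6 hepatoma markers lay above 0 (median 1.83, 3 with an unadjusted p under 0.05 against 2.92% of all probe sets) and 5 of 5 adipocyte markers below 0 (median -1.93, 3 against 4.05%).

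Whether the 10 genes changed more or less than the T cell receptor complex was examined by subtracting the mean of Cd3d, Cd3e and Cd3g in each tumour. None of 60 differences passed after adjustment by exact two-sided permutation tests (smallest adjusted p = 0.177). Such a test gives no p below 0.00216 in the pairs with placebo (462 splits) or 0.00794 in the others (252 splits). A lone difference at that floor could not pass over 60 tests, so this count cannot tell whether any gene departed from the CD3 mean. Of the 60 differences, 16 had an unadjusted p under 0.05 (26.7%), where 37.5% of the same differences over all probe sets did. Of the 10 genes, 6 met it for anti-PD1 against placebo, where 90.7% of all probe sets did, and 4 for combination against anti-PD1, where 89.4% did, so these shares lay below the background. Relative to these CD3 chains, Cd8b1 was 0.59 ± 0.13 in the combination and 0.18 ± 0.30 in placebo (mean ± SD), a difference of 0.41 (exact permutation p = 0.0238, adjusted 0.177), in a comparison where 2.37% of all probe sets met an unadjusted p under 0.05. Prf1 had nearly the same mean in the anti-PD1 and placebo arms, and relative to CD3 it was -1.36 ± 0.85 with anti-PD1 and -2.98 ± 0.56 with placebo, 1.62 higher (exact permutation p = 0.00649, adjusted 0.177), a kind of difference that most probe sets shared in this comparison. With Cd247 and Cd2 as the reference, 23 of the 60 differences turned sign. Cd8a relative to Cd4, the co-receptor of helper T cells, was 0.91 ± 0.68 with combination, 0.15 ± 0.62 with placebo, 0.27 ± 0.91 with lenvatinib and 0.16 ± 0.92 with anti-PD1, and 0 of 6 pairs passed (combination minus placebo 0.77, exact permutation p = 0.0801, adjusted 0.481).

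**Figure D3:**
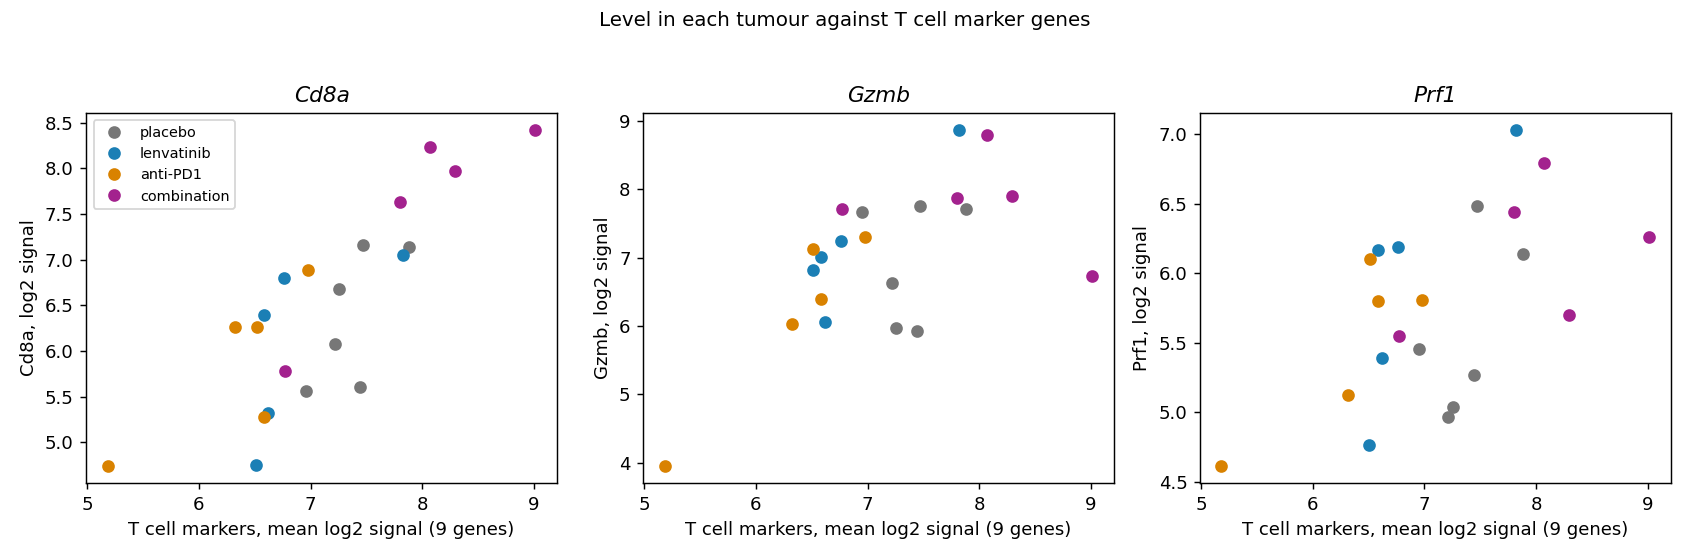
Log2 signal of Cd8a, Gzmb and Prf1 (y axes) against the mean log2 signal of 9 T cell markers (x axis), 1 point per tumour and 1 colour per arm. Combination tumours 2 to 5 lie at the upper right for Cd8a, while for Prf1 the placebo tumours (4.97 to 6.48) and the anti-PD1 tumours (4.61 to 6.10) overlap.

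Across the 21 tumours the 10 genes varied together. All 45 pairs had a Pearson r above 0, from 0.433 (Prf1 with Cst7) to 0.916 (Nkg7 with Ctsw), with a median of 0.703. By permutation (100000 resamples, two-sided, adjusted over the 45 pairs) 45 passed for r and 44 for Spearman's rho. How many pairs of other probe sets would pass was not examined, so these counts do not set the 10 genes apart. Cd8a with Cd8b1 had r = 0.825 and rho = 0.796, with adjusted permutation p = 6.43e-05 and 0.0003. Subtracting arm means left a median r of 0.644 (0.351 to 0.869). For each pair, the 2 tumours farthest from the median of 1 gene, the one named first in the opening list, were also left out. This left a median of 0.635 (0.234 to 0.904), and the tumours left out could differ between pairs. Within the other 15 arrays the median was 0.753 with a lowest of 0.476, whereas within the 6 arrays with bright controls it was 0.071 with a lowest of -0.773 (Prf1 with Cst7), a highest of 0.919 (Cd8b1 with Gzmk) and 28 of 45 pairs above 0. Markers of tissue make-up also differed between tumours, and their part in the correlations was not tested.

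**Figure D4:**
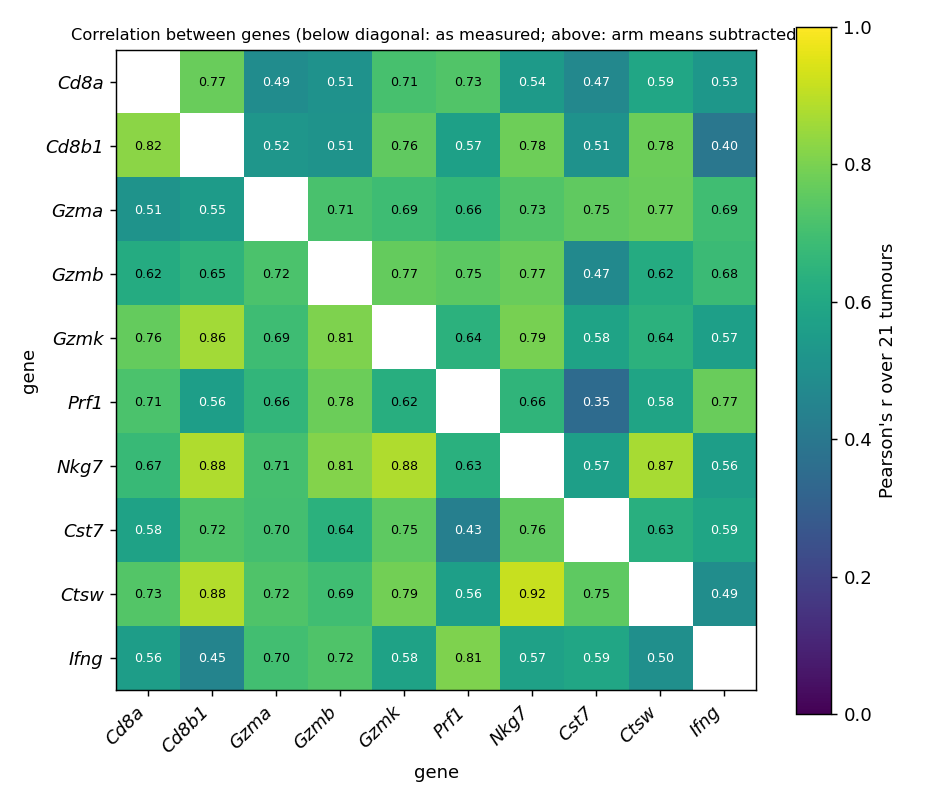
Pearson's r over 21 tumours for each pair of the 10 genes (both axes), as measured below the diagonal and after subtraction of arm means above it; colour runs from 0 to 1. Below the diagonal the highest values (0.86 to 0.92) are pairs among Nkg7, Ctsw, Cd8b1 and Gzmk, except Gzmk with Ctsw (0.79). Prf1 pairs more closely with Ifng (0.81) than with Cst7 (0.43).

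Combination mouse 2 was among the 5 highest of 21 tumours for 9 of the 10 genes, combination mouse 5 for 8, and combination mice 3 and 4 for 6 each. Lenvatinib mouse 5 was among the 5 highest for 8 genes and the highest of all for 4, and placebo mouse 3 was among them for 6. Anti-PD1 mouse 2 was among the 5 lowest for all 10 genes and mouse 5 of that arm for 9. Combination mouse 1 was among the 5 highest for 0 genes, unlike its arm.

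The genes whose arm-centred levels ran closest to Cd8a were Lcp1 (r = 0.966), Laptm5 (0.938), Cotl1 (0.933), Lgmn (0.926) and Smap2 (0.919), over 21 tumours. Those closest to Gzmb were Cd274 (0.916), which encodes the ligand PD-L1, Acod1 (0.895), Ctsz (0.885), Mmp13 (0.882) and Ch25h (0.870). Those closest to Prf1 were Tgm2 (0.837), Inhba (0.807), Pdcd1lg2 (0.805), which encodes the ligand PD-L2, Havcr2 (0.803), which encodes the inhibitory receptor TIM-3, and Dcstamp (0.798). They were ranked among all named probe sets and carry no test.

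Other genes of the pathway were read from 4 lists, and 0 of their genes passed in any comparison by limma. The granule and killing machinery list (18 of 20 measured) holds further granzymes, death ligands and the proteins that dock and fuse granules. Against anti-PD1, 18 of 18 were above 0 in the combination with a median of 0.55, and 11 had an unadjusted p under 0.05 (4.85% of all probe sets). The docking protein gene Stxbp2 differed by 0.68 ± 0.20 and Gzmf by 0.86 ± 0.26. With anti-PD1 alone 18 of 18 were below placebo with a median of -0.28 and 3 had an unadjusted p under 0.05 (2.68% of all), among them Gzmf at -0.67 ± 0.25 and the granule proteoglycan gene Srgn at -0.66 ± 0.30. Against lenvatinib, the combination had 15 of 18 above 0 and 3 with an unadjusted p under 0.05 (3.87% of all), such as the lysosome gene Lamp1 at 0.58 ± 0.19 and the death ligand gene Fasl at 0.77 ± 0.30. Against placebo 14 of 18 were above 0 and 1 had an unadjusted p under 0.05 (1.01% of all), the granule transport gene Rab27a at 0.56 ± 0.25.

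The effector regulators and cytokines list (19 of 20 measured) gave 18 of 19 above 0 for combination against anti-PD1, with a median of 0.93 and 10 at an unadjusted p under 0.05 (4.85% of all). Tnf, a cytotoxic cytokine, differed by 1.12 ± 0.31 and the interleukin-12 receptor gene Il12rb2 by 1.21 ± 0.34. For anti-PD1 against placebo 18 of 19 were below 0 with 7 at that level (2.68% of all), such as the interleukin-18 receptor gene Il18r1 at -1.12 ± 0.45. In combination against placebo none of the 19 met an unadjusted p under 0.05 by limma (1.01% of all), and Eomes, a T-box factor of cytotoxic cells, was at 0.60 ± 0.31. Of 5 naive and memory T cell genes (of 8), 5 lay above 0 for combination against anti-PD1 with a median of 0.79, and 2 had an unadjusted p under 0.05 (4.85% of all): Il7r, the interleukin-7 receptor chain, at 2.64 ± 0.68 and Cd28, the co-stimulatory receptor, at 0.96 ± 0.25. For anti-PD1 against placebo 3 of 5 lay below 0 with a median of -0.32, and the same 2 had an unadjusted p under 0.05 (2.68% of all), Il7r at -2.25 ± 0.65 and Cd28 at -0.51 ± 0.24.

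The interferon-gamma response list (21 of 23 measured) holds the receptor, the signalling proteins and genes this cytokine induces. For lenvatinib against placebo 16 of 21 were above 0 with a median of 0.65 and 2 at an unadjusted p under 0.05 (2.92% of all probe sets), whereas the combination had 15 of 21 below lenvatinib with a median of -0.29. Hepatoma markers lay above and adipocyte markers below placebo in the lenvatinib arm, with the medians given above, and their part in this was not tested. Lenvatinib lay above anti-PD1 for 18 of 21, with 9 at an unadjusted p under 0.05 (1.55% of all), among them Cd274 at 1.20 ± 0.41 and the interferon-induced GTPase gene Gbp3 at 0.88 ± 0.34. Combination lay above anti-PD1 for 20 of 21 with a median of 0.52 and above placebo for 20 of 21 with a median of 0.26. The chemokine gene Cxcl11 was the 1 gene of the list with an unadjusted p under 0.05 for combination against lenvatinib, at -0.89 ± 0.41, where 2.53% of all probe sets were lower by that measure.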

How the data were processed

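Total RNA of 21 tumours was measured on Clariom S mouse arrays. The deposited values are log2 signals that the authors made with RMA and oligo, per the submitters' processing notes, with no version given; RMA quantile-normalizes arrays, which removes a shift common to most genes. The array's genome build is not given in the sources used here. Of 29129 rows, 6923 control rows were left out. Gene names came from the platform's annotation; 2634 tested probe sets are unnamed here, and the probe set with the highest mean stood for a gene.

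Arms were taken from the treatment labels. Each sample is its own animal, and precision depends on how many arrays there are. limma 3.58.1 (R 4.3.3) fitted 4 arm means over all arrays with lmFit and eBayes, with 7 contrasts, each adjusted by Benjamini-Hochberg over 22206 probe sets. Ratios to CD3 genes and to Cd4 were tested by exact permutation over tumours (scipy 1.17.1). The fits were tested on simulated data.

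Genes are named by a rule: the 10 genes, up to 2 genes with the smallest p per list and comparison, and the 5 named genes most correlated with Cd8a, Gzmb and Prf1. The genes, lists and tests were chosen with earlier results of these data known. Lck, planned as a reference, was not matched. Alternatives were cyclic loess, a filter on mean signal (at or above percentile 40), moderation with trend, array weights, only the arms compared, the mouse number as a block, bright-control arrays as a block or left out, an adjusted p under 0.1, combination mice 3 and 4 left out, each mouse left out, and, chosen after seeing the data, the control signal as a covariate.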

Additional observations from a re-analysis of the deposited data

Results flagged for a closer look

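Of 40 sets of values (10 genes in 4 arms), 5 held a tumour far from the rest of its arm by Dixon's criterion, and chance alone gives this in about 5% of sets. Lenvatinib mouse 5 stood apart for Gzma, at a log2 signal of 7.62 against 5.61 for the next tumour of its arm, and for Nkg7, at 9.35 against 8.47. Placebo mouse 3 stood apart for Gzmk, at 6.83 against 6.17, and for Ctsw, at 6.94 against 6.30. Anti-PD1 mouse 4 stood apart for Cst7, at 8.55 against 6.76. Each was the highest of its arm.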

How the results depend on the processing

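No gene passed in any of the 7 comparisons in the fit reported above. Under array weights the count of the 10 genes was 3 for combination against lenvatinib (707 probe sets), 6 for combination against anti-PD1 (504) and 4 for the interaction (1691). For combination against anti-PD1 it was 2 without the arrays with bright controls (233 probe sets) and 2 with the hybridization-control signal as a covariate (31), an alternative chosen after seeing the data. Over single mice left out it ranged from 0 to 5 (probe sets 0 to 338), with 5 without combination mouse 1 and 2 without anti-PD1 mouse 4. For the interaction it ranged from 0 to 2 (probe sets 0 to 320, of which 81 without lenvatinib mouse 5, 7 without anti-PD1 mouse 4 and 320 without combination mouse 1), and for combination against lenvatinib probe sets ranged from 0 to 1. The cause was not tested. With the mouse number as a replicate block, 0 of the 10 genes and 0 probe sets passed; the number does not pair mice, since 15 of 30 same-number pairs had r above 0.1 (-0.635 to 0.562) and 3 of 20 arrays lay closest to their own number.

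Of 70 gene differences, 59 kept their sign under every alternative run for them, with 1583 gene and alternative combinations over all 70. The exact permutation test, the filter on mean signal, moderation with trend and the fits of only the arms compared leave a difference unchanged. Those alternatives could not turn a sign. Without the bright arrays Cd8a (0.11) and Gzma (0.013) turned positive for lenvatinib against placebo and Prf1 (-0.17) turned negative for combination against lenvatinib. With single mice left out, the differences that changed sign had these ranges. For lenvatinib against anti-PD1, Cd8a from -0.11 to 0.51 and Gzma from -0.12 to 0.53. For lenvatinib against placebo, Cd8a from -0.55 to 0.020, Cst7 from -0.38 to 0.13, Gzma from -0.62 to 0.14 and Gzmb from -0.17 to 0.54. For combination against placebo, Gzma from -0.051 to 0.50. For anti-PD1 against placebo, Ifng from -0.35 to 0.084 and Prf1 from -0.22 to 0.15. For combination against lenvatinib, Ifng from -0.083 to 0.40 and Prf1 from -0.048 to 0.52. Each of these 11 differences was smaller than its standard error.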
